A study of Mus musculus with 4 samples.

Results

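The 84 genes described here encode the nuclear share of the oxidative phosphorylation machinery, the 5 enzyme complexes of the inner mitochondrial membrane. They are the rows of a table of 16218 genes whose symbols begin with Ndufa, Ndufb, Ndufc, Ndufs, Ndufv, Uqcr, Cox4i, Cox5, Cox6, Cox7, Cox8 or Atp5, or read Sdha, Sdhb, Sdhc, Sdhd or Cyc1. Assembly factors of the Ndufaf type and symbols ending in -ps or os were left out. Complex I holds 36 of the genes, complex II 4, complex III 9, complex IV 18 and complex V 17. Ndufa4 and its paralog Ndufa4l2 were placed with complex IV, where the Ndufa4 protein is now known to sit. Atp5s and Atp5sl carry the Atp5 symbol but are not ATP synthase subunits.

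Thyroid tissue came from NOD.H-2h4 mice, an autoimmunity-prone strain, and poly(A)-selected RNA was sequenced as paired reads. One group of 2 libraries came from mice given isotype control IgG and the other group of 2 from mice given a monoclonal antibody that blocks PD-L1. Injections were given 3 times a week for 2 weeks. The batch field carries a different clone string for each library, LTF2 and LTF3 in the IgG group and 10F.9G2 and 10F.9G3 in the anti-PD-L1 group, and could not enter a model. Within a group the strings differ only in the last digit, and whether they stand for different clones is not known. Age and sex are not in the labels, and nothing states that libraries of a group came from separate animals beyond the numbered titles, so p-values measure the spread between these libraries.

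Complexes I and II pass electrons from NADH and from succinate to ubiquinone. Complex III passes them on to cytochrome c and complex IV to oxygen, and complex V uses the proton gradient that results to make ATP. A small set of core subunits is encoded in mitochondrial DNA and was not analysed here. Some complex IV subunits exist as a muscle or heart form and a widely expressed form, and thyroid follicular cells spend ATP on the ion gradient that drives iodide uptake.

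Library totals ran from 75591923 to 79663374.5 counts, and every level below is in CPM, counts scaled to the library total with trimmed-mean-of-M-values (TMM) factors, unless another scale is named. Values stand in the sequence control 1, control 2, treated 1 and treated 2, where the controls are the IgG libraries and the treated libraries those of the anti-PD-L1 group. Of the thyroid follicular markers 12 of 12 were listed, with Tg, thyroglobulin, at 152770, 148532, 44667 and 162488 CPM. Treated 1 stood apart from the other libraries in Tg, and in Xist, made from an inactive X chromosome, at 1.40 CPM against 67.7 to 72.7 CPM. Ddx3y, a gene of the Y chromosome, was at 62.6 CPM in treated 1 and at 0.350 to 0.790 CPM in the others, so the difference between the treated libraries described below runs along a difference in sex-linked genes, whose part in it was not tested. Skeletal muscle markers were abundant in every library, with 19 of 19 listed and a summed level of 30293 to 83488 CPM. None of these markers was listed at 0.

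Promoter sequence is shown for 5 genes, chosen after their values were seen, that mark the ends of the pattern described below. Sdha differed least between the treated libraries outside complex IV, and Atp5k differed most in complex V. Ndufb4 holds 3 motif matches in its window and followed the order of most members, while Cox6a1 and Cox8b are forms of complex IV subunits whose levels went apart. Each line gives bases before the gene's start on GRCm38.p6 from RefSeq, 5′ to 3′ on the strand of the gene, leaving out any base inside the GENCODE gene. Capitals mark matches on either strand to the letters GCGCA, any base, GCGC, a form of the site bound by NRF1, a regulator of respiratory chain genes.
Sdha (chr13:74350281-74350490, minus strand): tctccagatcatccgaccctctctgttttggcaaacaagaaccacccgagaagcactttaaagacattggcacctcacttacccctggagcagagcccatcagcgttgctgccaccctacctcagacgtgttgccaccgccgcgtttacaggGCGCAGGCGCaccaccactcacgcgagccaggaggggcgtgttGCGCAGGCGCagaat
Ndufb4 (chr16:37654454-37654618, minus strand): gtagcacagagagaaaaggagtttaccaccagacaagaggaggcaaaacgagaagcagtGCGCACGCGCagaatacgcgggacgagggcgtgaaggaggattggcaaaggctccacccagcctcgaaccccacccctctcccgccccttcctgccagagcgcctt
Cox6a1 (chr5:115348982-115349208, minus strand): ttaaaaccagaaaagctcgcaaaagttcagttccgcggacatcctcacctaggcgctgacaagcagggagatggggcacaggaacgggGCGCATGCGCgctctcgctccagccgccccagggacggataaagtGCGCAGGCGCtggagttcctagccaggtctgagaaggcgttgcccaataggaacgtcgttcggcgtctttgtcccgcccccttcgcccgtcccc
Atp5k (chr5:108434449-108434649, minus strand): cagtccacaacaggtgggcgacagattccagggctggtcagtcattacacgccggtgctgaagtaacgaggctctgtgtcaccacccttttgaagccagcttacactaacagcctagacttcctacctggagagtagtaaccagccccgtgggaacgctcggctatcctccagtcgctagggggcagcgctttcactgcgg
Cox8b (chr7:140900447-140900696, minus strand): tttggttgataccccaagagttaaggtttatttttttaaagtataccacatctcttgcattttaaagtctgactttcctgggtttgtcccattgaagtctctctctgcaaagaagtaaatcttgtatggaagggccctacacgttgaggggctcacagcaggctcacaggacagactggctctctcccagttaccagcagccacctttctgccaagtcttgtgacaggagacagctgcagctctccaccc
RefSeq promoter windows were found for 69 of the 84 genes, with 250 bases before and 50 after each start. Of these, 17 (24.6%) held the NRF1-type letters in a window, against 9.73% of the 12397 genes of the deposited table that the promoter table also holds and 5.19% of all 27025 genes in it. The ETS-type letters CCGGAAGT, related to the site of GABPA, were in 5 of 69 (7.25%), against 7.57% of those genes. Neither motif is contained in the other, and both strands were searched. Over the whole window Sdha and Ndufb4 each held 3 NRF1-type matches, Cox6a1 held 2 and Atp5k 1, of which 2, 1, 2 and 0 lie in the printed stretches, while neither motif was among the letters of the Cox8b window. A match is a description of the letters and was not tested as a site.

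PD-L1 blockade was compared with IgG to find thyroid genes that differ between the groups. No oxidative phosphorylation gene passed the test for a difference between the groups. The quasi-likelihood test of edgeR, adjusted by Benjamini-Hochberg over 16217 genes, called 0 of 84 members, against a background of 0% of all genes called. At an unadjusted p under 0.05 edgeR had 0 members against 6.06% of all genes. DESeq2 called 0 members against 3.26% of all genes and had 1 member at an unadjusted p under 0.05 against 7.28% of all genes. With limma voom the smallest adjusted p of a member was 0.864, and 0 members had an unadjusted p under 0.05 against 6.43% of all genes. The median log2 fold change of the members, anti-PD-L1 minus IgG, was 0.022, beside 0.00021 for all tested genes, with 46 members above 0 and 38 below. That split was 27 above and 57 below with limma voom. With the replicate number as a block it was 20 above and 64 below, with 1 member at an unadjusted p under 0.05 against 6.54% of all genes. Fitted standard errors of the members ran from 0.18 to 0.60 on the log2 scale, with a median of 0.32, so small shifts of the group mean could not be seen.

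**Figure D1:**
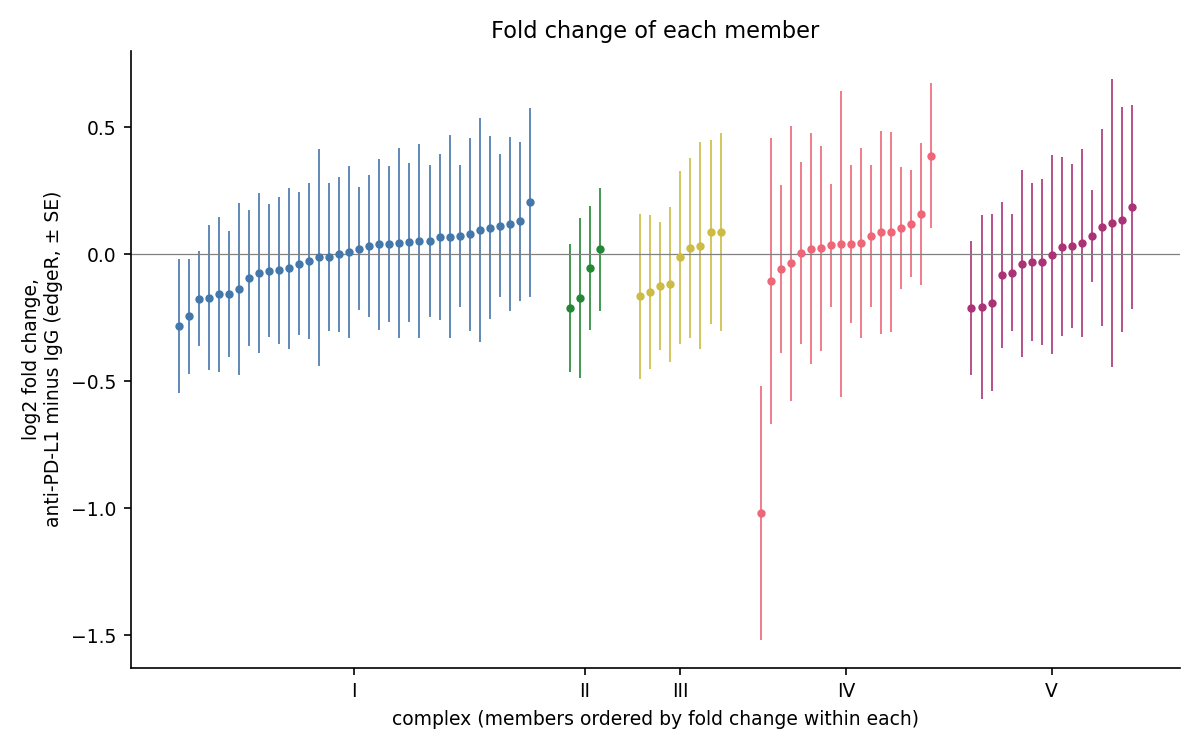
Fold change of each of the 84 members. Points are edgeR log2 fold changes, anti-PD-L1 minus IgG, and bars are 1 standard error (n = 2 libraries per group); the horizontal axis orders members within each complex. All but 2 members lie within 0.3 of 0, and Ndufa4l2 is the lowest at −1.02.

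The spread within the anti-PD-L1 group was the main feature of these genes. In 72 of 84 members treated 1 was above both controls and treated 2 was below both, an order found in 16.8% of all tested genes. The opposite order, found in 16.9% of all genes, occurred in 0 members. Treated 1 was the highest library in 75 members (background 30.7%) and treated 2 the lowest in 80 (background 32.3%). Both treated libraries lay above both controls in 1 member (background 16.5%) and below both in 6 members (background 13.1%). Summed over all members, the level was 19389, 19869, 23211 and 14474 CPM. The controls were nearly equal, and the treated libraries lay on either side of them.

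Gene by gene, the ratio of treated 1 to treated 2 had a median of 1.71 and ran from 0.903 for Cox6a1 to 3.43 for Cox7a1. It reached 2-fold or more in 20 members and was under 1 in 1. The ratio of control 1 to control 2 had a median of 0.973, and 69 of 84 members differed by less than 10% between these libraries. The log2 difference was larger within the treated pair than within the IgG pair in 96.4% of members and in 67.4% of all tested genes. With a single library on each side, the difference within a pair carries no test. The 72 members with this order numbered 72 again under RLE, upper-quartile and library-size scaling.

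**Figure D2:**
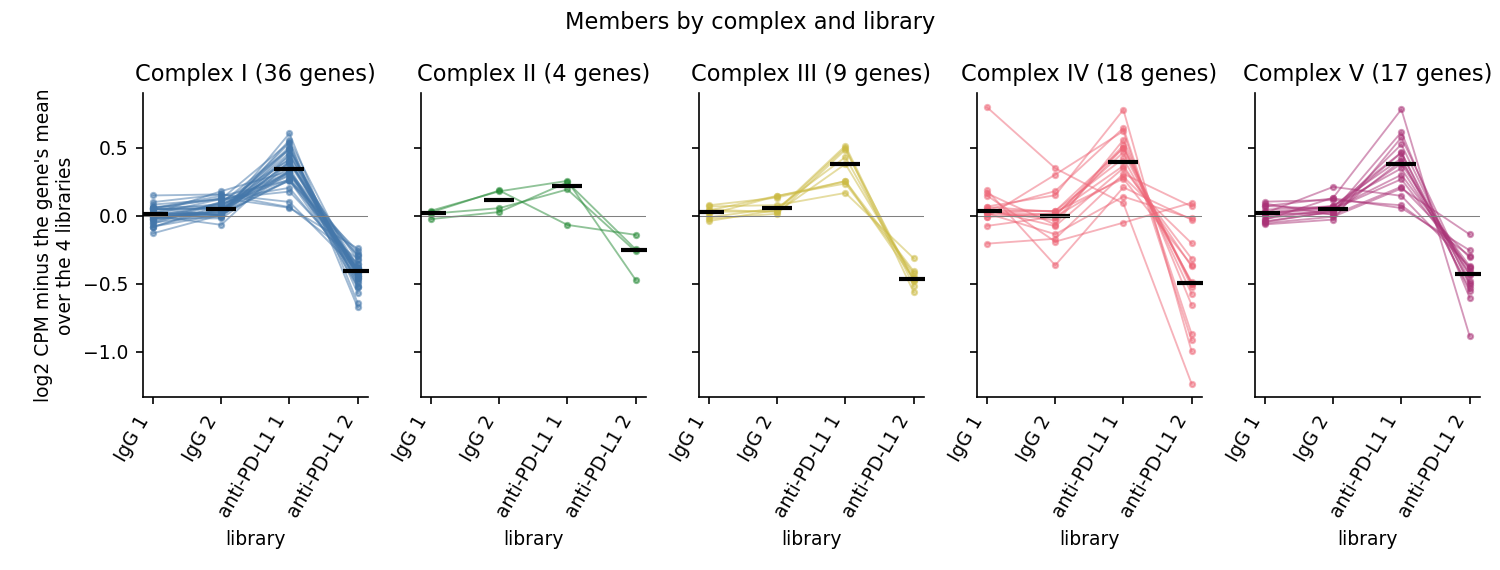
Level of each member in each library, by complex. The vertical axis is log2 CPM centred on the mean of that gene in the 4 libraries, thin lines join the values of 1 gene, and black bars are medians. In every complex the median is highest in treated 1 and lowest in treated 2, and complex IV holds the widest spread.

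Which anti-PD-L1 library was kept set the direction of the fold change. Without treated 1 the median of the members was −0.45, with 80 below 0 and 58 at an unadjusted p under 0.05, against 13.9% of all genes. Without treated 2 it was 0.34, with 76 above 0 and 31 at an unadjusted p under 0.05, against 13.2% of all genes. In both fits the lone treated library is assumed to vary like the IgG pair, so these p-values rest on the spread of that pair alone. edgeR called 0 members in either fit, with smallest adjusted p of 0.304 and 0.326. Skeletal muscle markers took the order of the members in 13 of 19 genes, with summed levels of 50355, 68327, 83488 and 30293 CPM. Follicular markers took the opposite order in 8 of 12 genes, with a median ratio of treated 1 to treated 2 of 0.442. Their summed levels, mostly Tg, were 155655, 150262, 46048 and 167048 CPM. Adipocyte markers also took the opposite order, in 7 of 10 genes, with summed levels of 1387, 1280, 833 and 1567 CPM. Squamous markers had 0 of 8 genes in either order, with summed levels of 10969, 2907, 4530 and 59.3 CPM. Airway markers had 1 of 8 genes in each order, with summed levels of 1384, 6789, 12184 and 2768 CPM. Both of these lists also differed widely between the controls. The part of these cell types in the levels of the members was not tested, and fewer cells of a type cannot be told apart from less RNA per cell in whole tissue.

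Complex I, the NADH dehydrogenase, had a median log2 fold change of 0.016, and 33 of its 36 members showed the order of the whole set. Its nuclear-encoded core subunits fall into an N module that takes electrons from NADH and a Q module that hands them to ubiquinone. The module lists used here also hold accessory subunits. Ndufv1, on chromosome 19 from 4007384 to 4012806 of GRCm38, binds NADH and flavin and had 306, 308, 296 and 208 CPM. Both treated values were below both control values, and the log2 fold change was −0.28 ± 0.26 (SE, n = 2 per group, edgeR adjusted p = 0.9997). Ndufs1, the large iron-sulfur subunit next to it, had 218, 226, 212 and 163 CPM, also with no overlap (−0.24 ± 0.23, edgeR adjusted p = 0.9997). Ndufs1 had the smallest p in the complex, 0.336 before adjustment (edgeR). In Ndufv1 and Ndufs1 treated 1 lay just under the lower control. Ndufv2, a smaller iron-sulfur subunit of the N module, had 117, 130, 161 and 87.8 CPM, so that the treated libraries lay on both sides of the control values. Of the 8 N module genes, 6 showed the order of the whole set, and the median log2 fold change was 0.025.

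The Q module had 5 members, and all 5 had treated 1 on top and treated 2 at the bottom, with a median log2 fold change of −0.092. Ndufs7, which carries the last iron-sulfur cluster before ubiquinone, had 146, 164, 181 and 101 CPM. Ndufs3 had 157, 165, 210 and 123 CPM, and Ndufs8, another iron-sulfur subunit, had 87.3, 89.8, 102 and 64.3 CPM. In each of these genes the controls lay between the treated libraries, and the log2 fold changes were −0.14 ± 0.34 for Ndufs7, 0.047 ± 0.31 for Ndufs3 and −0.092 ± 0.27 for Ndufs8. Among the accessory subunits, Ndufa6, which anchors the acyl carrier protein to the enzyme, had the highest log2 fold change of the complex, 0.20 ± 0.37, with 112, 123, 180 and 90.7 CPM. Ndufb8 had the highest level per kilobase of principal transcript in the complex, 352 CPM per kb averaged over the 4 libraries, with 233, 233, 296 and 195 CPM. Ndufb4, whose promoter is printed above, had 133, 138, 192 and 94.7 CPM. The remaining exception in complex I was Ndufa10, chosen after its values were seen, with 106, 111, 106 and 86.2 CPM.

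Complex II, succinate dehydrogenase, is encoded wholly in the nucleus and also serves the citric acid cycle. Its median log2 fold change was −0.11, and its median ratio between the treated libraries, 1.39, was the smallest of the 5 complexes. Sdha, the flavoprotein that oxidises succinate, lies on chromosome 13 from 74322254 to 74350280 and had 561, 628, 527 and 501 CPM. Both treated libraries were lower and close to each other, a pattern unlike the rest of the complex, and the log2 fold change was −0.21 ± 0.25 (edgeR adjusted p = 0.9997). Sdhb, the iron-sulfur subunit that takes its electrons, had 258, 285, 301 and 182 CPM. The membrane anchors had 229, 235, 259 and 189 CPM for Sdhc and 162, 168, 195 and 139 CPM for Sdhd. For these 3 genes the control values lay between the treated values.

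In complex III, the cytochrome bc1 complex, 9 of 9 members had the order of the whole set, and the median log2 fold change was −0.012. Uqcrc1, a core protein of the matrix side, had 388, 403, 439 and 267 CPM (−0.17 ± 0.32, edgeR adjusted p = 0.9997), the smallest p of the complex at 0.634. Uqcrfs1, the Rieske iron-sulfur protein, had 313, 337, 359 and 227 CPM. Cyc1, cytochrome c1, had 307, 338, 364 and 230 CPM. All 3 were close between the controls and spread wide between the treated libraries. Among the small subunits, Uqcrq had the highest level per kilobase, 680 CPM per kb, with 271, 273, 377 and 180 CPM. Uqcr10 had the highest fold change of the complex, 0.087 ± 0.39, with 172, 182, 253 and 124 CPM. The ratio between the treated libraries was 2.09 for Uqcrq and 2.04 for Uqcr10, and 1.65, 1.58 and 1.58 for Uqcrc1, Uqcrfs1 and Cyc1.

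Complex IV, cytochrome c oxidase, varied most among its members, with 13 of 18 in the order of the whole set and ratios between the treated libraries from 0.903 to 3.43. Its median log2 fold change was 0.040. Cox4i1, the common form of a subunit that regulates the enzyme, had the highest level per kilobase in the complex, 864 CPM per kb, with 665, 648, 768 and 494 CPM. Its paralog Cox4i2, known from lung and from low oxygen, was near the bottom at 1.09, 1.12, 1.57 and 1.32 CPM. Cox4i2 was the 1 member with both treated libraries above both controls, and its log2 fold change of 0.39 ± 0.29 was the highest of all 84 members but did not pass (edgeR adjusted p = 0.9997).

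Among complex IV genes the muscle forms differed most between the treated libraries. Cox6a2, on chromosome 7 from 128205435 to 128206387, had 352, 436, 545 and 187 CPM. Cox7a1 had 77.6, 82.2, 127 and 37.1 CPM. Cox8b, whose promoter is printed above, had 269, 296, 408 and 143 CPM. In all 3 the treated libraries differed by 2.86 to 3.43-fold, beside 2.76-fold for summed skeletal muscle markers. Treated 1 was the highest library and treated 2 the lowest for each of them. Their log2 fold changes between groups were −0.11 ± 0.56, 0.040 ± 0.60 and −0.035 ± 0.54, with the IgG values in between. Ckm, the gene of muscle creatine kinase, had 5368, 7595, 10132 and 3055 CPM, the same order. Cox7a1 and Cox8b are also known from brown fat, whose markers had summed levels of 165 to 196 CPM, with Ucp1 at 77.8, 67.0, 60.9 and 61.6 CPM. Of these 6 markers, 1 took the order of the members, Elovl3, with 40.5, 55.3, 80.4 and 24.0 CPM. The opposite order was taken by 3, Adrb3 among them, with 10.5, 8.72, 4.23 and 19.7 CPM. The part of brown fat in Cox7a1 and Cox8b was not tested.

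The widely expressed partners of these genes were flatter. Cox6a1, on chromosome 5 from 115345642 to 115348981, had 348, 275, 303 and 336 CPM, and was the 1 member lower in treated 1 than in treated 2. Cox8a had 264, 238, 288 and 257 CPM, with all 4 libraries within a narrow band. Cox7a2 followed the whole set, with 123, 113, 152 and 95.8 CPM. Taken per kilobase of transcript, the ratio of Cox6a2 to Cox6a1 was 0.849 and 1.33 in the controls, 1.51 in treated 1 and 0.469 in treated 2. The ratio of Cox8b to Cox8a was 1.56, 1.90, 2.17 and 0.849 in the same sequence, and that of Cox7a1 to Cox7a2 was 1.06, 1.22, 1.40 and 0.649. These ratios lie within a library and do not depend on scaling. In each pair the muscle form took its highest share in treated 1 and its lowest in treated 2, so the groups overlapped.

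**Figure D3:**
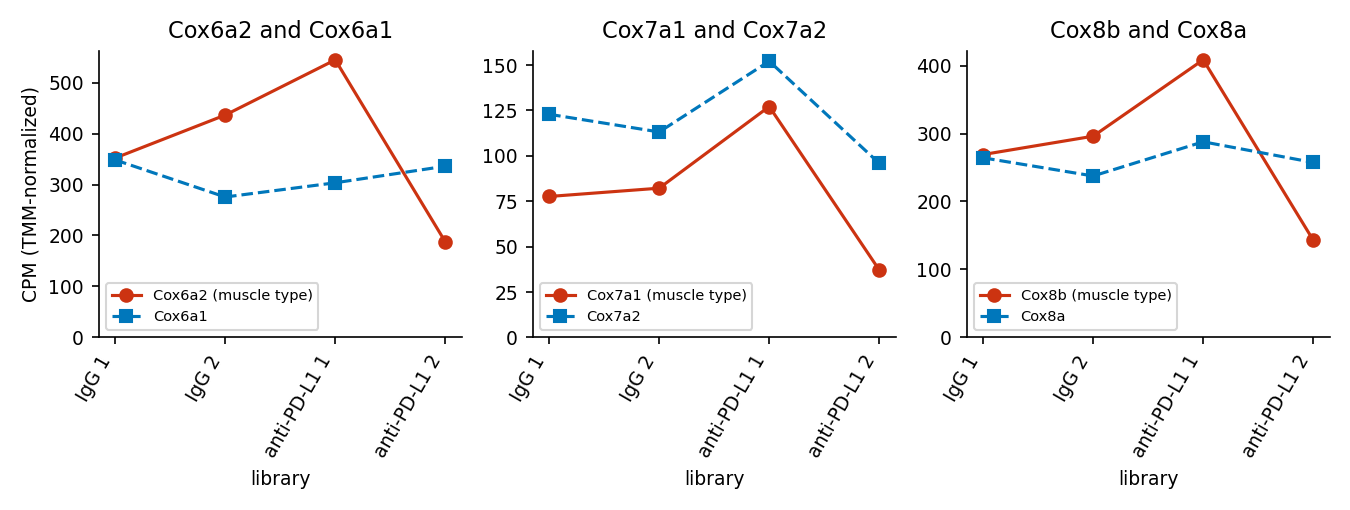
Muscle and widely expressed forms of 3 complex IV subunits. The vertical axis is CPM from 0, and each point is 1 library, joined by lines for each gene. The muscle forms fall to 187, 37.1 and 143 CPM in treated 2, while Cox6a1 and Cox8a stay at 336 and 257 CPM. The widely expressed form Cox7a2 is also lowest in treated 2, at 95.8 CPM against 152 CPM in treated 1.

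Ndufa4l2, a paralog of Ndufa4 known to be induced at low oxygen, had the lowest log2 fold change of all members. It lies on chromosome 10 from 127514967 to 127517154 and had 17.0, 12.4, 10.4 and 4.13 CPM. Both treated libraries were lower, and the log2 fold change of −1.02 ± 0.50 did not pass (edgeR adjusted p = 0.9997). It was −1.83 without treated 1 and −0.51 without treated 2. Ndufa4 itself followed the order of the whole set, with 255, 217, 335 and 144 CPM. Cox6b1 had 222, 219, 301 and 154 CPM, while Cox6b2, known as its testis form, had 6.94, 4.73, 7.05 and 5.97 CPM. Cox7a2l, which takes part in joining complexes III and IV, had 150, 157, 193 and 137 CPM. Leaving out Cox4i2, Cox6a2, Cox6b2, Cox7a1, Cox8b and Ndufa4l2, the order of the whole set held in 69 of 78 members, and the summed level was 18666, 19036, 22112 and 14095 CPM.

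Complex V, the ATP synthase, had a median log2 fold change of −0.0024, with 14 of 17 members in the order of the whole set. Atp5b, the catalytic beta subunit on chromosome 10 from 128083273 to 128090391, had the highest level per kilobase of all 82 members with a length, 1103 CPM per kb. It had 2256, 2274, 2214 and 1712 CPM, with no overlap and a fitted log2 difference of −0.21 ± 0.36 (edgeR adjusted p = 0.9997). Atp5a1, the alpha subunit, had 1964, 2042, 1944 and 1567 CPM. In both genes treated 1 lay just under the lower control, and most of the difference came from treated 2.

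The c subunit that forms the rotor ring is made from 3 genes with the same mature protein. Atp5g1 had 240, 247, 326 and 160 CPM, Atp5g2 202, 210, 267 and 155 CPM, and Atp5g3 372, 380, 453 and 285 CPM. Their ratios between the treated libraries were 2.03, 1.73 and 1.59, and Atp5g3 had the highest level per kilobase of the 3, 522 CPM per kb. Atp5l, subunit g, had the highest fold change of the complex, 0.19 ± 0.40, with 214, 219, 333 and 160 CPM. Atp5k, subunit e, chosen after its values were seen, had 38.5, 43.1, 67.7 and 21.3 CPM, a ratio of 3.18 between the treated libraries. Atp5s had the lowest fold change of the complex, −0.21 ± 0.26, at 7.04, 8.05, 7.69 and 5.34 CPM.

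Transcript length, which the choice of members did not use, went with the size of the swing. Across the 82 members with an annotated principal transcript, of 360 to 3171 bases, length and the log2 difference of treated 1 minus treated 2 had Spearman rho = −0.48. Length and the log2 fold change between groups had rho = −0.55, against −0.13 over all genes, −0.36 over the cytosolic ribosome and −0.24 over the mitochondrial ribosome. Genes share libraries and are not independent replicates, so these are descriptions only. The 53 members under 1000 bases had a median ratio of 1.85 between the treated libraries, and the 29 of 1000 bases or more had 1.53. Over all tested genes the same classes had 1.34 and 0.988, and the rho with the anti-PD-L1 difference was −0.33. The IgG pair gave rho = −0.23 over the members and −0.017 over all genes. Of the 6 members with both treated libraries below both controls, 5 had transcripts over 1000 bases, namely Ndufv1, Ndufs1, Sdha, Atp5b and Atp5a1, and the other was Ndufa4l2. The part of length in these levels was not tested.

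**Figure D4:**
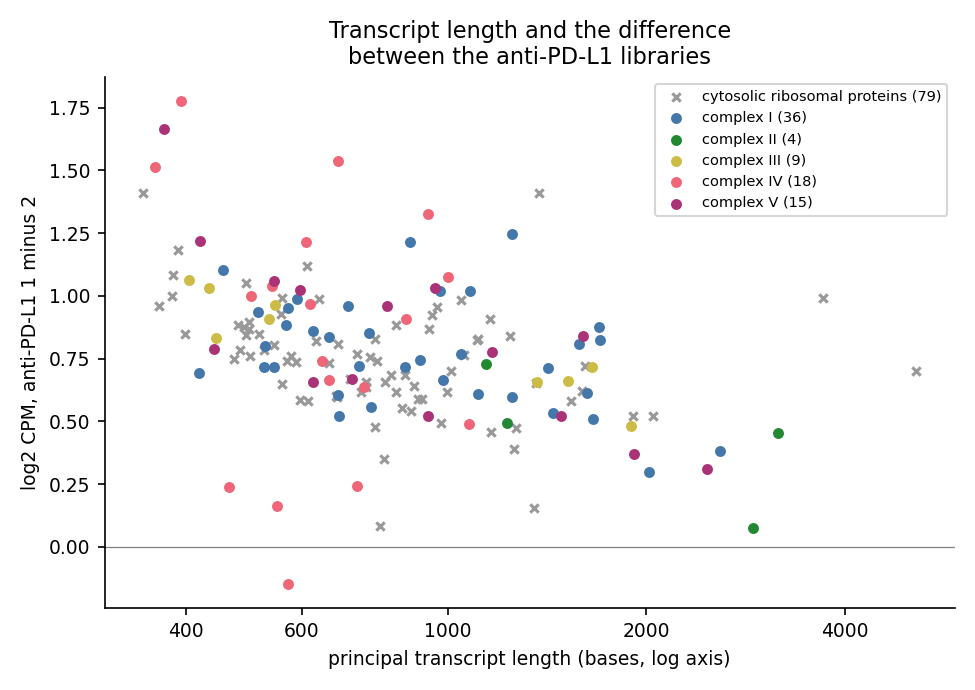
Principal transcript length against the difference between the treated libraries. The horizontal axis is length in bases on a log axis, the vertical axis is log2 CPM of treated 1 minus treated 2, and each point is a gene. The members (rho −0.48) and the cytosolic ribosomal protein genes (crosses, rho −0.43) both slope downward, and Cox6a1 is the lone member below 0.

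The NRF1-type letters were also set beside the levels. In the window nearest the GENCODE start, 16 members had a match, with a median ratio of 1.65 between the treated libraries and 14 in the order of the whole set. The 53 without a match had a median ratio of 1.74 and 47 in that order.

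Other genes of energy metabolism gave the setting for these values, and edgeR called 0 genes in each of the lists that follow. Assembly factors of the complexes had 24 of 46 genes in the order of the whole set, a median ratio of 1.27 between the treated libraries and a median log2 fold change of 0.028. Citric acid cycle and pyruvate dehydrogenase genes had 17 of 17 fold changes below 0 and a median of −0.15. Of these genes, 6 were lower in both treated libraries (background 13.1%). Pdhx, the protein X of pyruvate dehydrogenase, had the smallest p there, with 71.3, 61.4, 56.3 and 45.0 CPM (−0.39 ± 0.19, edgeR adjusted p = 0.9997). Fatty acid oxidation genes had 15 of 18 below 0, a median of −0.14 and 8 genes lower in both treated libraries (background 13.1%). Among these 8 was Cpt2, an enzyme of carnitine-dependent import, with 71.1, 62.7, 53.6 and 55.0 CPM. Over all tested genes, 8114 fold changes were above 0 and 8103 below. Single libraries moved the medians of both these lists. Without treated 2 the citric acid cycle median was 0.025, and without treated 1 it was −0.38. The fatty acid oxidation median was −0.25 without treated 1 and −0.057 without treated 2.

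Carriers, porins and cristae genes had 11 of 18 in the order of the whole set and a median ratio of 1.57. Mitochondrial import genes had 12 of 23 and a ratio of 1.32, and mitochondrial ribosomal proteins 56 of 78 and 1.40. Glycolysis genes had 8 of 17 and 1.29. The regulators of mitochondrial biogenesis had 5 of 16 and 1.02, with Ppargc1a, the coactivator PGC-1alpha, at 33.2, 34.0, 18.7 and 36.6 CPM. Ppargc1b, its relative and the gene of smallest p in that list, had 10.1, 8.68, 6.22 and 7.60 CPM (−0.44 ± 0.22, edgeR adjusted p = 0.9997). Ppargc1a was lowest in the library where most members were highest. The cytosolic ribosome list, which has no mitochondrial role, had 77 of 79 genes in the same order and a median ratio of 1.68. The order of the libraries seen in the members was thus also present in genes outside oxidative phosphorylation.

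**Figure D5:**
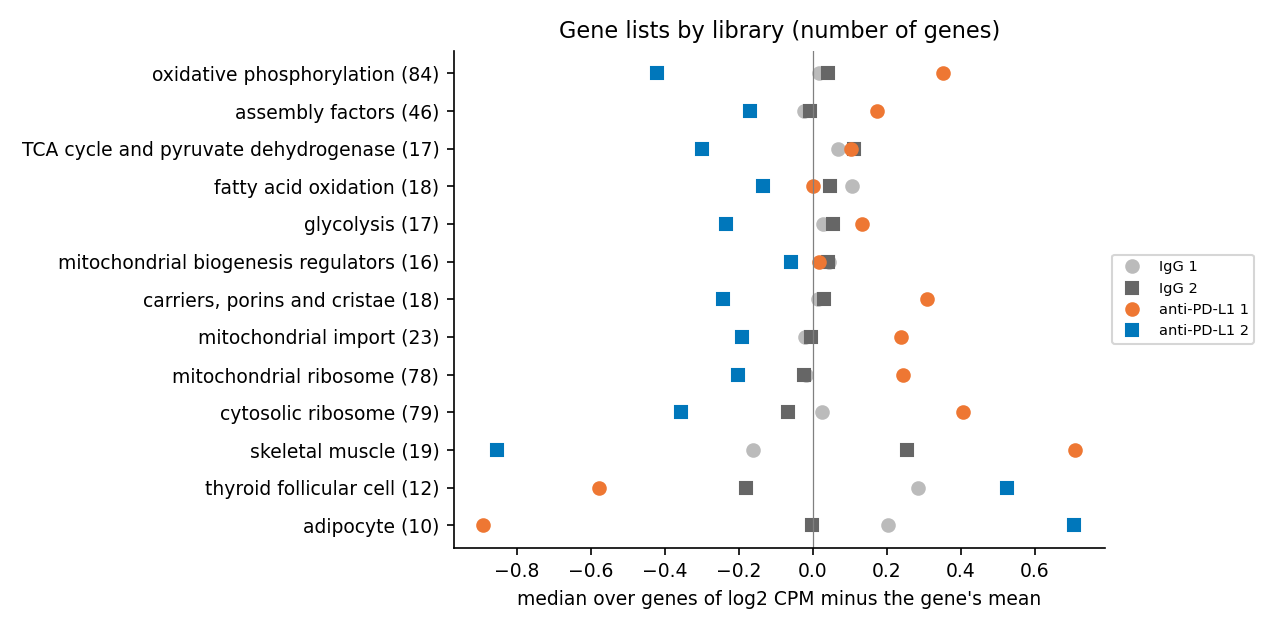
Gene lists by library. Each point is the median over a list's genes of log2 CPM centred on the mean of that gene in the 4 libraries, with the number of genes in brackets. The members lie at 0.35 in treated 1 and −0.42 in treated 2, the cytosolic ribosome at 0.41 and −0.36, and follicular and adipocyte markers lie the other way round.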

How the data were processed

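RNA was measured in 4 thyroid libraries, 2 per group. The authors deposited 1 table of expected counts, without normalization, for 16218 gene symbols, with values that are not whole for 3328 genes. BWA and mm10 are named in the submitters' processing notes, with no role or version, while the sources used here do not give the counting program, annotation or strand setting. Many respiratory chain genes have processed pseudogenes, so the share of reads given to each is uncertain. Each gene reached at least 100 counts in some library, and 13 blank cells were read as 0.

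Counts were rounded and tested with edgeR 4.0.16 (R 4.3.3, filterByExpr, TMM, robust quasi-likelihood F test on group, two-sided, Benjamini-Hochberg over 16217 genes, threshold 0.05). All 84 members passed the filter. Standard errors are the absolute log2 fold change over the square root of F. With 2 libraries per group an exact permutation test cannot go below p = 0.333. A count of 3 equals 0.0377 to 0.0397 CPM before TMM factors, a floor covering counting error only. Log2 CPM used a prior count of 2. Steps were tested on simulated data.

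Coordinates and lengths came from GENCODE M21 on GRCm38, the assembly also called mm10, where 82 members were found once. The principal transcript of best support was used, the shortest where several tied. Named genes were, in each complex, those of smallest p, highest and lowest fold change and highest level per length, plus isoform sets, core subunits (items withheld from this text are not reported here), for some lists the gene of smallest p, and Tg, Ucp1, Ckm and Ppargc1a. Other genes, Xist and Ddx3y among them, were named after their values were seen. Members and lists were chosen with earlier results of these data known. Alternatives were other scalings and filters, DESeq2 1.42.0, limma 3.58.1 voom, a replicate block, each library left out, marker genes and Tg left out, and an adjusted p under 0.10.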

Additional observations from a re-analysis of the deposited data

How the results depend on the processing

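With each library left out in turn, edgeR called 0 genes and 0 members in every fit, while direction rested on the anti-PD-L1 libraries. Median log2 fold changes ranged over −0.38 to 0.025 for the citric acid cycle, −0.29 to 0.26 for carriers, −0.45 to 0.31 for complex I, −0.27 to 0.14 for complex II, −0.50 to 0.33 for complex III, −0.51 to 0.41 for complex IV, −0.45 to 0.35 for complex V, −0.34 to 0.41 for the cytosolic ribosome, −0.25 to −0.057 for fatty acid oxidation, −0.29 to 0.067 for glycolysis, −0.12 to −0.041 for biogenesis regulators, −0.22 to 0.26 for mitochondrial import, −0.19 to 0.26 for the mitochondrial ribosome and −0.45 to 0.34 for the members, and −0.12 to 0.17 for assembly factors. Members below 0 in every such fit also moved, over −1.83 to −0.51 for Ndufa4l2, −0.56 to −0.064 for Ndufv1, −0.45 to −0.079 for Ndufs1, −0.31 to −0.13 for Sdha, −0.40 to −0.045 for Atp5b and −0.35 to −0.056 for Atp5a1. Among named members that changed sign with a library left out, log2 fold changes ranged over −0.60 to 0.41 for Atp5g1, −0.41 to 0.36 for Atp5g2, −0.40 to 0.25 for Atp5g3, −0.44 to 0.61 for Atp5l, −0.50 to 0.014 for Atp5s, −0.41 to 0.21 for Cox4i1, −0.12 to 0.20 for Cox6a1, −1.07 to 0.45 for Cox6a2, −0.52 to 0.44 for Cox6b1, −0.092 to 0.44 for Cox6b2, −1.11 to 0.66 for Cox7a1, −0.30 to 0.35 for Cox7a2, −0.16 to 0.31 for Cox7a2l, −0.98 to 0.52 for Cox8b, −0.49 to 0.16 for Cyc1, −0.71 to 0.49 for Ndufa4, −0.37 to 0.60 for Ndufa6, −0.26 to 0.33 for Ndufb8, −0.39 to 0.37 for Ndufs3, −0.62 to 0.21 for Ndufs7, −0.46 to 0.19 for Ndufs8, −0.49 to 0.37 for Ndufv2, −0.58 to 0.13 for Sdhb, −0.30 to 0.15 for Sdhc, −0.25 to 0.23 for Sdhd, −0.52 to 0.50 for Uqcr10, −0.57 to 0.14 for Uqcrc1, −0.52 to 0.13 for Uqcrfs1 and −0.59 to 0.46 for Uqcrq. The cause was not tested. Under the other alternatives, 313 of 333 values of 37 named members kept their sign and 20 did not. Those 20 were −0.0042 for Ndufv2 with RLE scaling, −0.0041 for Ndufv2 with upper-quartile scaling, 0.0011 for Atp5g1 with library size alone, −0.0042 for Ndufv2 with DESeq2, −0.0093 for Ndufv2 with marker genes and Tg left out, −0.051 for Uqcrq, −0.023 for Cox6b1, −0.20 for Cox7a1, −0.085 for Ndufa4, −0.013 for Atp5g2 and −0.046 for Ndufv2 with limma voom, and −0.0017 for Sdhd, −0.0026 for Uqcr10, −0.061 for Uqcrq, −0.033 for Cox6b1, −0.22 for Cox7a1, −0.098 for Ndufa4, −0.020 for Atp5g2, −0.054 for Ndufv2 and −0.0035 for Ndufs3 with the replicate block. Some of these values are close to 0, and none passed the threshold. Replicate numbers are shared by name only (r = 0.0998 over genes between the within-group differences), and the replicate block called 0 genes and 0 members, with 1 member against 6.54% of all genes at an unadjusted p under 0.05. Over all genes DESeq2 called 528 and an adjusted p under 0.10 gave 15, with 0 members in each. Library-size scaling put 2 members above in both anti-PD-L1 libraries in place of 1. Members with both anti-PD-L1 libraries below both controls numbered 7 in place of 6 with RLE scaling and with library size alone. They also numbered 7 with marker genes and Tg left out. With the longest principal transcript, chosen after seeing the data as were the scalings of library order, rho was −0.37 for the anti-PD-L1 difference and −0.50 for the fold change. The lowest count of a member in a library was 85, for Cox4i2.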

Other observations

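Other energy genes differed from the order seen in oxidative phosphorylation, as values only. Hk3, a hexokinase of myeloid cells, had 5.45, 4.66, 13.4 and 12.9 CPM, with little spread within either group, and a log2 fold change of 1.38 ± 0.19 that did not pass over all genes (edgeR adjusted p = 0.200). Macrophage markers had both treated libraries above both controls in 9 of 10 genes (background 16.5%), with summed levels of 209, 244, 884 and 805 CPM. T cell markers did so in 10 of 10 genes, with summed levels of 29.8, 56.1, 161 and 162 CPM, and B cell markers in 0 of 5. The part of any of these cell types in Hk3 was not tested. Ucp2, an inner membrane carrier that is abundant in immune cells, had 367, 297, 457 and 476 CPM (0.49 ± 0.25, edgeR adjusted p = 0.9997). Cidea, a lipid droplet protein of brown fat, had 33.8, 33.2, 22.6 and 23.9 CPM (−0.52 ± 0.14, edgeR adjusted p = 0.511). It had the smallest p of 6 brown adipocyte markers, of which 2 were lower in both treated libraries and 2 had fold changes above 0, Elovl3 at 0.12 ± 0.61 and Adrb3 at 0.32 ± 0.74. Hk3, Ucp2 and Cidea were each picked as the gene of smallest p in their list. That their groups did not overlap follows largely from that choice, so it cannot be set against the members. Over all tested genes, both treated libraries were above both controls in 16.5% and below both in 13.1%.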
